A study of Mus musculus with 24 samples.

Results

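The genes of fatty acid uptake and oxidation were followed in whole hearts of female FVB/N mice with repressed CELF activity. They comprise 36 genes listed by their known roles, from uptake at the cell surface to the last steps of mitochondrial and peroxisomal oxidation, and 35 of them had a detected probe among the 12011 genes tested. *Acsl1*, the main long-chain acyl-CoA synthetase of heart muscle, was not analysed here. Both transgenic lines, kept as hemizygotes, carry MHC-CELFΔ, a nuclear dominant negative CELF protein expressed in heart muscle under the mouse α-myosin heavy chain promoter. MHC-CELFΔ-10 is the severe line, MHC-CELFΔ-574 is the mild line, and each line stems from its own transgene insertion. Each of 24 untreated mice on a standard diet gave total RNA for 1 Illumina MouseWG-6 v2 expression array. The younger mice, aged 3 weeks, comprised 4 wild type animals and 3 of either line, and the older, aged 24 weeks, 4 wild type animals and 5 of either line. The wild type mice were littermates without the transgene, 2 from each line at each age, and replicates are separate mice.

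Adult heart muscle draws most of its energy from long-chain fatty acids. These enter the cell through transport proteins, are joined to coenzyme A, cross the inner mitochondrial membrane as carnitine esters and are shortened step by step in the mitochondrial β-oxidation spiral, whose electrons pass through the electron transfer flavoprotein to the respiratory chain. Many genes of this pathway are known targets of the nuclear receptors PPARα and ERRα and their coactivator encoded by *Ppargc1a*. In failing hearts the pathway is known to be reduced, with a greater use of glucose.

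The largest number of fatty acid genes fell in the severe line at 24 weeks, fewer fell in either line at 3 weeks, and 1 gene, with a call lost on leaving out any of 3 arrays, fell in mild line hearts of 24 weeks. Sizes are differences of quantile-normalized log2 intensity, and a gene is said to have risen or fallen where the adjusted p was under 0.05 (limma, Benjamini-Hochberg over all 12011 genes). In the severe line at 24 weeks 22 of the 35 genes fell and 0 rose, where 7.32% of all genes fell and 8.26% rose. In the severe line at 3 weeks 7 fell and 0 rose (1.96% and 2.66% of all genes). In the mild line 5 fell and 0 rose at 3 weeks (1.26% and 1.07% of all genes), and only *Acot1* fell at 24 weeks, where 0.541% of all genes fell and 0.425% rose. At an unadjusted p under 0.05 in limma, 14 and 15 of the 35 genes were lower in the mild and severe lines at 3 weeks (5.54% and 8.03% of all genes) and 7 and 24 at 24 weeks (3.4% and 12.4%). None of the 35 was higher at this threshold in any of these comparisons, where 5.65% and 8.41% of all genes were higher at 3 weeks and 4.45% and 13.5% at 24 weeks. The median log2 difference of the 35 genes was -0.29 in the mild and -0.27 in the severe line at 3 weeks, and -0.17 in the mild and -0.47 in the severe line at 24 weeks, while the median of all genes lay between -0.00297 and 0.00632. In each of the 4 comparisons with wild type 31 of the 35 genes lay below 0. The 4 comparisons share their wild type arrays by age and are not independent of each other.

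**Figure D1:**
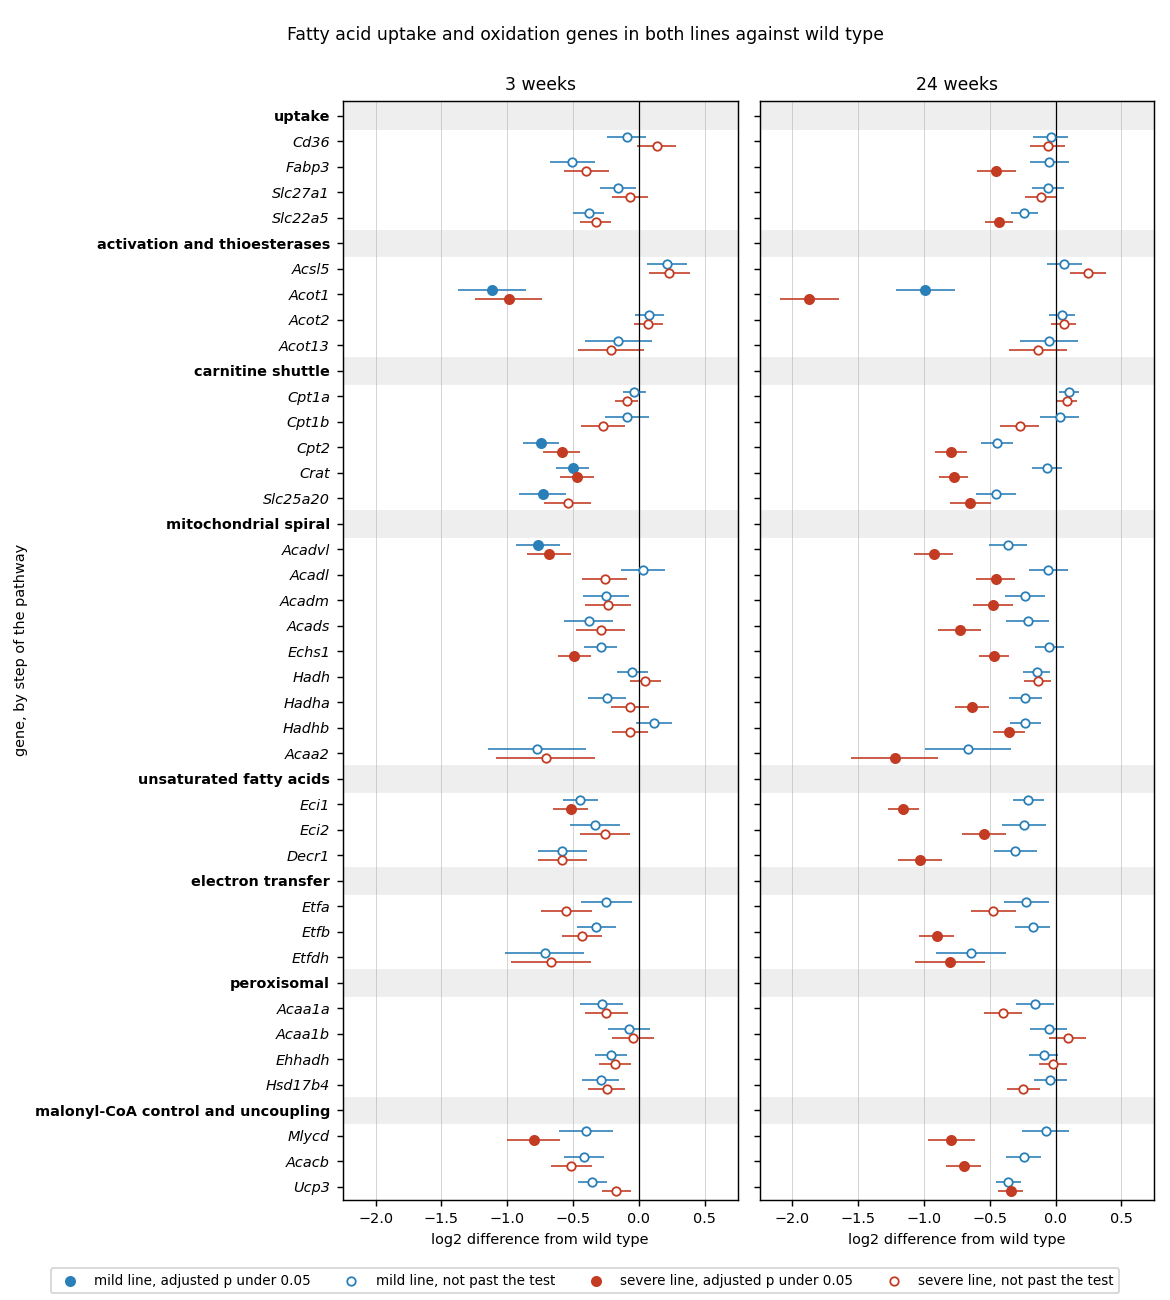
Log2 difference from the wild type hearts of the same age for each of the 35 fatty acid genes, by step of the pathway, in the mild line (blue) and the severe line (red) at 3 weeks (left) and 24 weeks (right). Points are the fitted differences, bars their standard errors, and filled points have an adjusted p under 0.05. The severe line at 24 weeks has 22 filled points, all left of 0, and the mild line at 24 weeks has 1.

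Several arrays stood apart and touch these counts. The lowest raw intensity split the arrays into a set of 12 with higher and a set of 12 with lower background, and each group had mice in both sets. By the numbers in the sample titles, the higher set was the first 12 arrays and the lower set the last 12. The wild type mice of each line at each age lay in 1 set, so that among wild type hearts of the same age line and background cannot be told apart. Wild type mice of the severe line lay in the higher set at 3 weeks and the lower at 24 weeks, and those of the mild line the other way round. Within the 12 arrays of higher background 9 of the 35 genes fell in the severe line at 24 weeks with a median difference of -0.42, and within the 12 of lower background 9 fell with a median of -0.50. These refits, and those that leave out an array, use fewer arrays. The shares of all genes given above are those of the main fit and do not apply to them. At 3 weeks the median over the 35 genes was -0.51, -0.14 and -0.32 in the 3 severe line hearts, and without replicate 1, the lowest, none of the 7 calls held. At 24 weeks severe line replicate 5 had a median of -0.22 against -0.50 to -0.69 in the other 4 hearts, and without it 24 of the 35 genes fell. Of the 22 genes called in the severe line at 24 weeks, 14 passed whichever of the 9 arrays compared was left out. The deposited values are quantile normalized, which gives every array the same distribution. In raw intensities centred on the median of each array 7 of the 35 genes fell, 0 rose and their median was -0.41 with a median of all genes at 0.08, while over all genes 909 rose and 200 fell, against 992 and 879 in the normalized values.

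**Figure D2:**
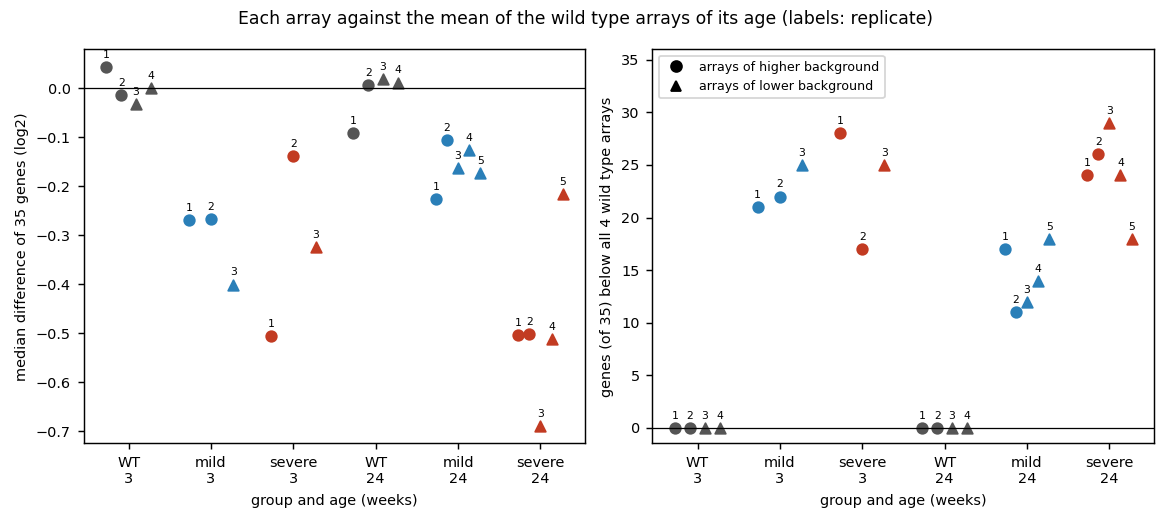
Median log2 difference of the 35 fatty acid genes on each array from the mean of the wild type arrays of its age (left) and the number of the 35 genes below all 4 wild type arrays of its age (right), by group, with circles for arrays of higher and triangles for arrays of lower background and the replicate number above each point. All 16 transgenic hearts lie below 0 on the left, and severe line replicate 5 at 24 weeks lies at -0.22, above the other 4 hearts of its group.

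Of the 4 uptake genes, *Slc22a5* and *Fabp3* fell in the severe line at 24 weeks. *Slc22a5* encodes OCTN2, the carnitine transporter of the cell membrane. Its log2 intensity was 8.76, 8.61, 8.73 and 8.88 in the wild type, 8.54, 8.49, 8.46, 8.50 and 8.57 in the mild line and 8.20, 8.54, 8.07, 8.33 and 8.45 in the severe line hearts at 24 weeks. All transgenic hearts of that age lay below all wild type hearts, and the difference of -0.43 ± 0.10 (SE) in the severe line passed the test (adjusted p = 0.00513), whereas that of -0.24 in the mild line did not (adjusted p = 0.518). *Fabp3*, the fatty acid binding protein of heart muscle cytosol, read 14.14 to 14.68 in wild type and 13.63 to 14.23 in severe line hearts at 24 weeks. These ranges overlap, and its log2 difference of -0.45 ± 0.15 (adjusted p = 0.0427) was lost when severe line replicate 1, 2 or 3 or wild type replicate 2 or 4 was left out (adjusted p up to 0.152). *Slc27a1*, a fatty acid transport protein, and *Cd36*, the main fatty acid translocase of heart muscle, passed in no comparison with wild type. The *Cd36* probe was above background on 15 of 24 arrays and its values, from 6.44 to 7.05, lay close to background in every group.

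*Acot1*, a cytosolic thioesterase that releases fatty acids from acyl-CoA and is known as a PPARα target, had the lowest log2 difference of all 35 genes in each of the 4 comparisons with wild type. At 3 weeks it read 9.66, 9.12, 9.23 and 9.33 in wild type, 8.20, 8.59 and 7.86 in mild line and 7.79, 8.31 and 8.94 in severe line hearts. At 24 weeks the values were 9.04, 9.40, 10.15 and 9.35 in wild type, 7.88, 8.60, 8.65, 8.75 and 8.58 in the mild line and 7.52, 7.70, 7.89, 7.62 and 7.33 in the severe line. Every transgenic heart lay below every wild type heart of its age. On the normalized scale it was 2.17-fold lower in the mild and 1.98-fold lower in the severe line at 3 weeks (adjusted p = 0.016 and 0.025), 1.99-fold lower in the mild line at 24 weeks (adjusted p = 0.0246) and 3.66-fold lower in the severe line at 24 weeks (adjusted p = 3.03e-06). The severe line call at 24 weeks held whichever of the 9 arrays was left out, with an adjusted p of at most 2.2e-05. At 3 weeks the mild line call was lost without wild type replicate 1 or mild line replicate 1 or 3 (adjusted p up to 0.145), and the severe line call without wild type replicate 1 or 4 or severe line replicate 1 or 2 (adjusted p up to 0.227). At 24 weeks the mild line call was lost without mild line replicate 1 or 2 or wild type replicate 3 (adjusted p up to 0.156).

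*Acot2*, the mitochondrial thioesterase, is a close paralog and the neighbour of *Acot1* on chromosome 12, and whether the probes of the pair cross-hybridize was not tested. *Acot2* read 6.52 to 6.90 in wild type and 6.67 to 6.86 in severe line hearts at 24 weeks, close to background, with a difference of 0.06 ± 0.10. The start regions of the pair (RefSeq, GRCm38.p6), shown because the most affected gene of the pathway lies beside a paralog that did not pass, run from 250 bases before to 50 bases after the start at chr12:84009252-84009551 and chr12:83987611-83987910, both on the plus strand. The longest run that both hold is 9 bases long, and capitals mark it.
Acot1: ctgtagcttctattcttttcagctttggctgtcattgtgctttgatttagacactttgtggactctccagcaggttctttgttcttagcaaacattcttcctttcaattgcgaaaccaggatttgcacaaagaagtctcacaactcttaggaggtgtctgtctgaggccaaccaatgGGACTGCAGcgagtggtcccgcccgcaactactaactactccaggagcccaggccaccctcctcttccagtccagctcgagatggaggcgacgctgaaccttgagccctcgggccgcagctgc
Acot2: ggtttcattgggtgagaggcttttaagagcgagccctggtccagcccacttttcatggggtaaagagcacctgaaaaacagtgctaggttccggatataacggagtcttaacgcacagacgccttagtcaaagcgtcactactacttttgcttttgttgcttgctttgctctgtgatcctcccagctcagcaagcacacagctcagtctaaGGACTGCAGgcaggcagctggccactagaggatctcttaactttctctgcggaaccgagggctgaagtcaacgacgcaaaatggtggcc
*Acsl5*, an acyl-CoA synthetase, and *Acot13*, a thioesterase of mitochondria, passed in no comparison. *Acsl5* had the highest log2 difference of the 35 genes in the severe line at both ages, 0.23 ± 0.15 and 0.25 ± 0.14.

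In the carnitine shuttle, *Cpt2*, the carnitine palmitoyltransferase of the inner membrane, fell in both lines at 3 weeks and in the severe line at 24 weeks. It read 12.77, 12.63, 12.51 and 12.51 in wild type, 11.96, 11.99 and 11.62 in mild line and 11.70, 12.36 and 12.00 in severe line hearts at 3 weeks. At 24 weeks it read 12.19, 12.50, 12.66 and 12.64 in wild type, 11.97, 12.12, 11.96, 12.07 and 12.14 in the mild line and 11.84, 11.90, 11.47, 11.74 and 11.59 in the severe line. All transgenic hearts of both ages lay below the wild type hearts, with differences of -0.75 ± 0.14 and -0.59 ± 0.14 at 3 weeks (adjusted p = 0.00237 and 0.0135) and -0.45 ± 0.12 and -0.79 ± 0.12 at 24 weeks (adjusted p = 0.0993 and 5.8e-05) in the mild and severe lines. Among the 5 calls in the mild line at 3 weeks, that of *Cpt2* alone passed whichever of the 7 arrays was left out.

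*Crat*, carnitine acetyltransferase, which buffers acetyl-CoA in mitochondria, differed between the lines at 24 weeks. It read 10.74, 10.73, 11.03 and 10.95 in wild type, 10.79, 10.75, 10.99, 10.82 and 10.61 in mild line and 10.28, 10.12, 10.08, 10.08 and 9.86 in severe line hearts. The mild line overlapped wild type, and all 5 severe line hearts lay below the other 9 hearts of that age. The severe line was 1.71-fold lower than wild type (adjusted p = 2.93e-05) and 1.63-fold lower than the mild line (adjusted p = 9.85e-05). At 3 weeks both lines were below all wild type hearts, with log2 differences of -0.50 ± 0.13 and -0.47 ± 0.13 (adjusted p = 0.0339 and 0.0343). *Slc25a20*, the carnitine-acylcarnitine translocase, fell in mild line hearts of 3 weeks (-0.73 ± 0.18, adjusted p = 0.0243) and in severe line hearts of 24 weeks (-0.65 ± 0.16, adjusted p = 0.0048). The mild line call was lost without wild type replicate 1 or 3 or any mild line replicate (adjusted p up to 0.122). A second, dimmer probe, above background on 21 of 24 arrays, differed by 0.09 and -0.27 in these 2 comparisons. In a limma fit of all detected probes it did not pass (adjusted p = 0.948 and 0.169). Neither *Cpt1b*, the muscle form of the rate-setting outer membrane transferase, nor *Cpt1a*, its liver form, passed in any comparison. In severe line hearts of 24 weeks *Cpt1b* differed by -0.27 ± 0.15, and the probe of *Cpt1a* was above background on 6 of 24 arrays.

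The mitochondrial spiral had 8 of its 9 genes fall in the severe line at 24 weeks, against 2 in severe and 1 in mild line hearts of 3 weeks and 0 in mild line hearts of 24 weeks. *Acadvl*, the very long-chain acyl-CoA dehydrogenase that takes the entry step, read 12.85, 12.91, 12.92 and 12.94 in wild type, 12.17, 12.36 and 11.91 in mild line and 11.62, 12.59 and 12.46 in severe line hearts at 3 weeks. At 24 weeks it read 12.70, 12.68, 12.73 and 12.80 in wild type, 12.16, 12.28, 12.43, 12.62 and 12.35 in the mild line and 12.13, 11.89, 11.63, 11.77 and 11.59 in the severe line. The wild type hearts lay within narrow ranges above all transgenic hearts at both ages, and the 5 severe line hearts at 24 weeks lay below the 5 mild line hearts. The differences were -0.76 ± 0.17 and -0.68 ± 0.17 at 3 weeks (adjusted p = 0.0103 and 0.0174) and -0.36 ± 0.15 and -0.93 ± 0.15 at 24 weeks (adjusted p = 0.443 and 8.19e-05) in the mild and severe lines. At 3 weeks the severe line call was lost without severe line replicate 1 (adjusted p = 0.189) and the mild line call without mild line replicate 3 (adjusted p = 0.112).

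The other acyl-CoA dehydrogenases fell in the severe line at 24 weeks. *Acads*, of short chains, read 10.35, 10.13, 10.34 and 10.77 in wild type, 10.01, 10.18, 10.20, 10.27 and 10.27 in mild line and 9.89, 9.53, 9.50, 9.90 and 9.52 in severe line hearts. All severe line hearts lay below all other hearts of that age, with log2 differences of -0.73 ± 0.16 against wild type (adjusted p = 0.00274) and -0.52 ± 0.15 against the mild line (adjusted p = 0.0308). *Acadm*, of medium chains (-0.48 ± 0.15, adjusted p = 0.0347), and *Acadl*, of long chains (-0.45 ± 0.15, adjusted p = 0.0393), passed with overlapping groups, and these calls were lost on leaving out any of 7 (*Acadm*, adjusted p up to 0.119) or 8 (*Acadl*, adjusted p up to 0.125) of the 9 arrays, those that left the calls in place being severe line replicate 5 for both and wild type replicate 4 for *Acadm*. *Echs1*, the short-chain enoyl-CoA hydratase, fell in the severe line at 3 weeks (-0.49 ± 0.13, adjusted p = 0.0245) and at 24 weeks (-0.47 ± 0.11, adjusted p = 0.00431). *Hadh*, the short-chain hydroxyacyl-CoA dehydrogenase, did not pass, and its probe was above background on 15 of 24 arrays.

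*Hadha* and *Hadhb* encode the α and β subunits of the mitochondrial trifunctional protein, which carries out the later steps on long chains. *Hadha* read 8.00, 7.67, 8.15 and 7.58 in wild type, 7.71, 7.55, 7.51, 7.42 and 7.91 in mild line and 7.22, 7.33, 7.35, 7.16 and 7.01 in severe line hearts at 24 weeks. All 5 severe line hearts lay below the others, with a difference of -0.63 ± 0.13 from wild type (adjusted p = 0.00101) and -0.40 ± 0.12 from the mild line (adjusted p = 0.0294). *Hadhb* fell by less (-0.35 ± 0.12, adjusted p = 0.0478), a call that held only without severe line replicate 1 or 5 (adjusted p up to 0.143 without any other array). It was the only one of the 35 genes that rose with age in wild type hearts, where it lay between 12.39 and 12.72 at 3 weeks and between 12.96 and 13.29 at 24 weeks (0.52 ± 0.13, adjusted p = 0.0248; 0.966% of all genes rose with age). This call was lost without wild type replicate 2, 3 or 4 of 3 weeks or 2 or 3 of 24 weeks (adjusted p up to 0.0977), in raw intensities centred on the median and within either background set. The 2 genes lie head to head on chromosome 5, with 273 bases between their start sites. The start region of *Hadhb* at chr5:30155003-30155302 (RefSeq, GRCm38.p6, plus strand) is shown because 228 of its 300 bases, in capitals, are also in the start region of *Hadha* on the minus strand.
Hadhb: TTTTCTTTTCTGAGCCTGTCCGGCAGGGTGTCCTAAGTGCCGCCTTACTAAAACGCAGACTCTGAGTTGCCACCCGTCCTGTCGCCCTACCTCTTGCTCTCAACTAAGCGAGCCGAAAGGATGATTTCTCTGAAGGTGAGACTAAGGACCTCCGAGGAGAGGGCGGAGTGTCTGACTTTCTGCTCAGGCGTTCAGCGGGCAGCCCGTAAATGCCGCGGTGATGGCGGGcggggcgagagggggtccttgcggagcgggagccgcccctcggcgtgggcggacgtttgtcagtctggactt

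*Acaa2*, the mitochondrial ketoacyl-CoA thiolase that takes the last step, was more than 2-fold lower in the severe line at 24 weeks. It read 10.45, 11.29, 9.60 and 10.06 in wild type, 10.14, 9.67, 9.65, 9.54 and 9.41 in mild line and 8.35, 8.99, 9.21, 8.72 and 10.35 in severe line hearts. Severe line replicate 5 lay inside the wild type range and the other 4 below it, and wild type replicate 2 was the highest of the wild type hearts. The difference was -1.22 ± 0.33 (adjusted p = 0.0117), and -0.91 without wild type replicate 2 (adjusted p = 0.0586) and -1.53 without severe line replicate 5 (adjusted p = 0.000337). It was -2.20 within the arrays of higher background (adjusted p = 0.00143), -0.40 within those of lower background (adjusted p = 0.678) and -0.70 against the wild type mice of the same line only (adjusted p = 0.285), which are the wild type arrays of lower background.

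**Figure D3:**
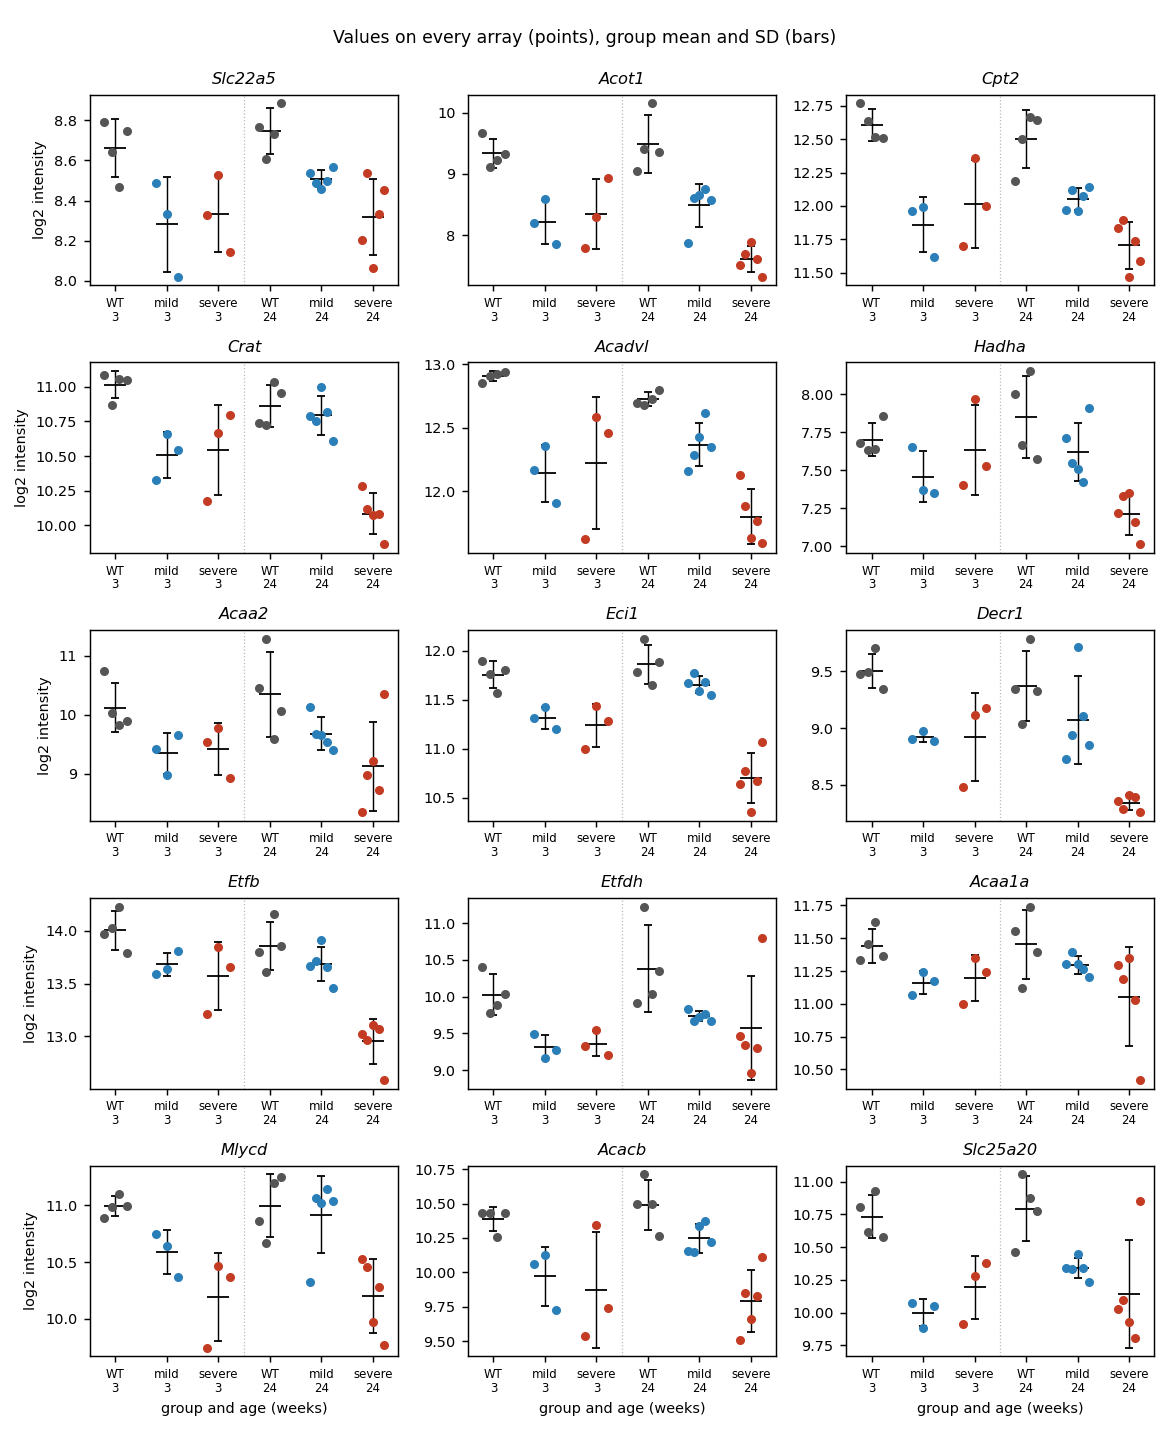
Log2 intensity of 15 fatty acid genes on every array (points), with the group mean and SD (bars), for wild type (grey), mild line (blue) and severe line (red) hearts at 3 and 24 weeks. For *Acot1*, *Crat*, *Eci1*, *Decr1* and *Etfb* the 5 severe line hearts at 24 weeks lie below the 4 wild type hearts, while for *Acaa2*, *Etfdh* and *Slc25a20* severe line replicate 5, the rightmost point, lies inside the wild type range.

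All 3 genes for unsaturated fatty acids fell in the severe line at 24 weeks. *Eci1*, an enoyl-CoA isomerase of mitochondria that moves unsaturated bonds into the position the spiral needs, read 11.79, 12.12, 11.65 and 11.88 in wild type, 11.67, 11.77, 11.59, 11.69 and 11.55 in mild line and 10.64, 10.78, 10.35, 10.67 and 11.07 in severe line hearts. The severe line hearts lay below all others, 2.23-fold lower than wild type (adjusted p = 3.35e-07) and 1.93-fold lower than the mild line (adjusted p = 4.86e-06), while the mild line differed from wild type by -0.21 ± 0.12 (adjusted p = 0.767). At 3 weeks it read 11.89, 11.77, 11.57 and 11.81 in wild type, 11.31, 11.42 and 11.20 in the mild line and 11.00, 11.44 and 11.29 in the severe line, and only the severe line passed (-0.52 ± 0.13, adjusted p = 0.0253).

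*Decr1*, the dienoyl-CoA reductase of mitochondria, read 9.35, 9.04, 9.78 and 9.33 in wild type, 8.73, 8.94, 9.71, 9.11 and 8.85 in mild line and 8.36, 8.29, 8.41, 8.40 and 8.26 in severe line hearts at 24 weeks. The 5 severe line values span less than those of either other group and lie below them all, 2.04-fold below wild type (adjusted p = 0.0001) and 1.65-fold below the mild line (adjusted p = 0.0032). At 3 weeks both lines lay below all wild type hearts, with log2 differences of -0.58 and -0.58, and did not pass (adjusted p = 0.13 and 0.0822). *Eci2*, a further isomerase, fell in the severe line at 24 weeks (-0.54 ± 0.17, adjusted p = 0.0263), and not without wild type replicate 1 or 4 or severe line replicate 3 (adjusted p up to 0.0985).

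The electron transfer genes carry electrons from the acyl-CoA dehydrogenases to ubiquinone. *Etfb*, the β subunit of the flavoprotein, read 13.80, 13.61, 14.16 and 13.86 in wild type, 13.67, 13.72, 13.91, 13.66 and 13.46 in mild line and 13.03, 12.97, 13.10, 13.07 and 12.59 in severe line hearts at 24 weeks. The severe line lay below both other groups, with log2 differences of -0.90 ± 0.13 against wild type (adjusted p = 3.12e-05) and -0.73 ± 0.12 against the mild line (adjusted p = 0.000375). *Etfa*, the α subunit, differed by -0.48 ± 0.17 at its brightest probe and did not pass (adjusted p = 0.0634). Its other probes, both above background on all 24 arrays, differed by -0.59 and -0.49. In a limma fit of all detected probes the former passed (adjusted p = 0.0176) and the latter did not (adjusted p = 0.155). *Etfdh*, the oxidoreductase that hands the electrons on, fell (-0.80 ± 0.27, adjusted p = 0.0419) with overlapping groups, a call lost without wild type replicate 2 or 4 or any severe line replicate other than 5 (adjusted p up to 0.184).

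Peroxisomal genes did not pass in any comparison. *Acaa1a*, the peroxisomal thiolase, read 11.55, 11.12, 11.74 and 11.40 in wild type, 11.30, 11.40, 11.30, 11.27 and 11.21 in mild line and 11.29, 11.19, 11.35, 11.03 and 10.42 in severe line hearts at 24 weeks. Severe line replicate 5 was the lowest of all 24 hearts, the groups overlapped, and the difference was -0.40 ± 0.14 (adjusted p = 0.0627). *Hsd17b4*, the D-bifunctional protein, differed by -0.25 ± 0.12 (adjusted p = 0.222). *Ehhadh*, the L-bifunctional protein, and *Acaa1b*, a further thiolase, were above background on 15 and 10 of 24 arrays.

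Genes that set malonyl-CoA, the inhibitor of the outer membrane transferases, fell in the severe line at 24 weeks. *Mlycd*, malonyl-CoA decarboxylase, which removes it, read 10.86, 10.67, 11.20 and 11.25 in wild type, 10.32, 11.07, 11.02, 11.14 and 11.04 in mild line and 10.53, 10.46, 9.97, 10.28 and 9.77 in severe line hearts. The severe line lay below wild type (-0.79 ± 0.18, adjusted p = 0.00292) and below 4 of the 5 mild line hearts, with mild line replicate 1 among the severe line values. At 3 weeks the severe line hearts read 9.75, 10.46 and 10.37 against 10.89, 10.98, 11.10 and 10.99 in wild type, without overlap (-0.80 ± 0.20, adjusted p = 0.0231). *Acacb*, the acetyl-CoA carboxylase that makes malonyl-CoA in muscle, moved the same way at 24 weeks, with 10.49, 10.71, 10.50 and 10.26 in wild type, 10.15, 10.15, 10.34, 10.38 and 10.22 in mild line and 9.51, 9.85, 9.66, 9.83 and 10.11 in severe line hearts. All severe line hearts lay below both other groups, with log2 differences of -0.70 ± 0.14 against wild type (adjusted p = 0.000704) and -0.46 ± 0.13 against the mild line (adjusted p = 0.0209). *Ucp3*, an uncoupling protein of muscle mitochondria, fell (-0.34 ± 0.10, adjusted p = 0.0158), with its probe above background on 4 of 4 wild type and 2 of 5 severe line arrays, and this call was lost without wild type replicate 3 (adjusted p = 0.0752). The mild line at 24 weeks differed by as much (-0.36), with 6.48 to 6.69 against 6.79 to 7.10 in wild type, and did not pass. A second probe, about as bright, differed by -0.21 in the severe line (adjusted p = 0.234 in a limma fit of all detected probes).

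The lines were also compared with each other. At 24 weeks 11 of the 35 genes were lower in the severe than in the mild line and 0 were higher, where 5.33% of all genes were lower, with a median log2 difference of -0.25. At 3 weeks 0 passed in limma, where 0.125% of all genes were lower, and 0 at an unadjusted p under 0.05, where 6.63% of all genes passed in either direction, with a median of 0.04. The 11 genes were *Acot1*, *Crat*, *Acadvl*, *Acads*, *Echs1*, *Hadha*, *Eci1*, *Decr1*, *Etfb*, *Mlycd* and *Acacb*, and 8 of them passed whichever of the 10 arrays was left out. The calls of *Acads*, *Hadha* and *Acacb* were lost on leaving out any of 7, 4 and 4 of the 10 arrays (adjusted p up to 0.074, 0.0932 and 0.0588). In raw intensities centred on the median 1 of the 35 was lower, with 803 genes higher and 49 lower over all genes, and 1 and 5 were in the sets of higher and lower background, so that none of the 11 calls passed under every alternative. The change with age of the difference from wild type had a median over the 35 genes of 0.12 in the mild and -0.17 in the severe line. For single genes it did not pass, with 0 of 35 in the mild line (0.0666% of all genes in either direction) and 0 of 35 in the severe line (0.683%). At an unadjusted p under 0.05 in limma these were 1 and 4 genes, where 4.25% and 8.34% of all genes passed, so a change of the differences with age was not shown for any of the 35 genes. The largest estimate was that of *Acot1* in the severe line, -0.88 ± 0.34 (adjusted p = 0.369).

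By the study's criteria for an affected gene, a fold change of at least 2 together with either an adjusted p below 0.05 or an unadjusted p below 0.001, 4 of the 35 (*Acot1*, *Acaa2*, *Eci1* and *Decr1*) were affected in severe line hearts of 24 weeks, against 1.57% of all genes. In mild line hearts of 3 weeks *Acot1* alone was affected (1 of 35, against 0.583%). None of the 35 met these criteria in mild line hearts of 24 weeks or severe line hearts of 3 weeks, where 0.208% and 0.566% of all genes did. Counted by ranges alone, 16 genes in the mild and 14 in the severe line at 3 weeks lay below all wild type hearts in every heart of the line, against 7.1% and 8.8% of all genes. At 24 weeks these were 7 genes in the mild line (1.64% of all genes) and 16 in the severe line (5.04%), and 10 genes separated the severe from the mild line downwards (4.63%).

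Severe line replicate 5 at 24 weeks was often at the edge of its group, over the pathway as over all genes. It alone had the highest value of its group for 12 of the 35 genes, where it did for 26% of all genes, and 9 of these values lay inside the wild type range. For *Etfdh* it read 10.80 against 8.97 to 9.47 in the other 4 severe line hearts, and for *Slc25a20* 10.85 against 9.81 to 10.10. For *Acadm* it read 13.46 against 12.54 to 12.96, for *Acadl* 9.64 against 8.87 to 9.02 and for *Etfa* 13.04 against 11.98 to 12.63. It was the lowest of its group for 10 of the 35, where it was for 37.1% of all genes, among them *Acot1*, *Crat*, *Acadvl*, *Hadha*, *Decr1*, *Etfb* and *Mlycd*, all 7 outside the wild type range. Other arrays lay at the edge too. Wild type replicate 2 at 24 weeks, in a group of 4 hearts, was alone highest for 13 and lowest for 9 of the 35. Over all genes it was so for 24.7% and 34.6%. The genes named here were chosen after their values were seen.

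Of 18 genes with several kept probes, 16 had all of them below 0 in the severe line at 24 weeks, and of the others *Acsl5* had all above 0 and *Acot2* had probes on both sides of 0. The 35 genes had 69 probes, of which 62 were kept, and the brightest stood for each gene. Of the 62 probes 57 lay below 0, and for the 14 genes that fell and had several kept probes, all 35 probes did. The size differed between probes of a gene. The second *Acot1* probe, above background on 8 of 24 arrays, differed by -0.36 against -1.87 for the brightest, while the 4 *Acaa2* probes, each above background on all arrays, differed by -1.22 to -1.38. For *Cpt2* the dimmest probe, above background on all arrays, differed by -1.11 against -0.79 for the brightest. No background was subtracted from the deposited values, which can make differences of dim probes smaller than those of the RNA. Whether it set the sizes given here was not tested.

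**Figure D4:**
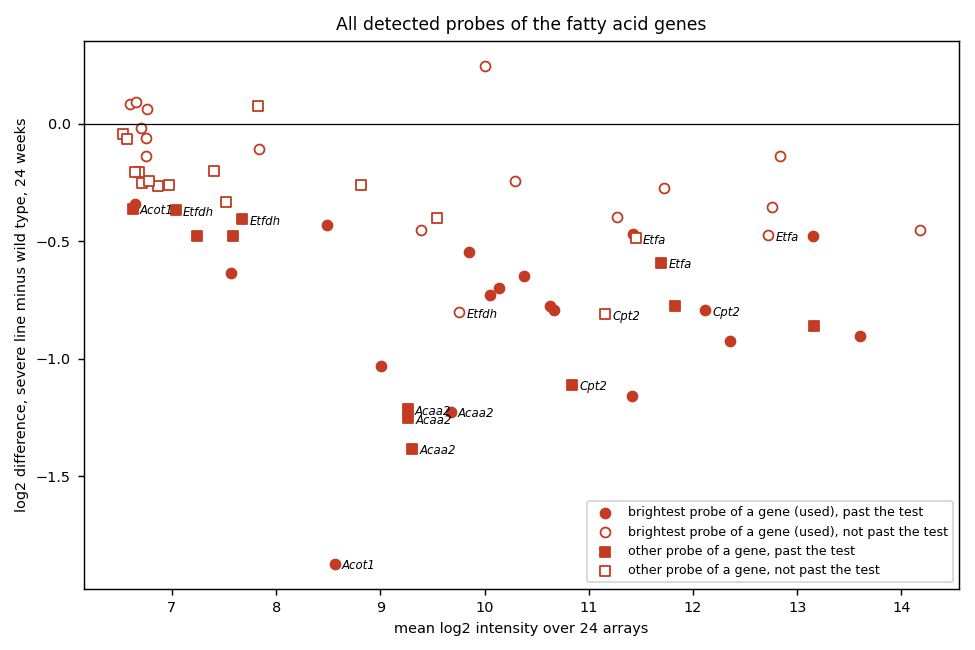
Log2 difference between severe line and wild type hearts at 24 weeks against the mean log2 intensity over the 24 arrays for the 62 kept probes of the fatty acid genes, with circles for the brightest probe of a gene, squares for its other probes and filled symbols for an adjusted p under 0.05 over all kept probes. Of the 62 probes, 57 lie below 0, and the second *Acot1* probe lies near background at -0.36.

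Beside these genes, a list of 64 further genes of fatty acid handling had 48 tested, of which 15 fell and 0 rose in the severe line at 24 weeks, with a median log2 difference of -0.21. The larger falls among them were those of *Pex11a*, which acts in peroxisome division (-1.11 ± 0.26), *Ech1*, a dienoyl-CoA isomerase (-1.0 ± 0.13), *Acss1*, the mitochondrial acetyl-CoA synthetase (-0.89 ± 0.12), and *Acsm5*, a medium-chain acyl-CoA synthetase (-0.79 ± 0.07). *Acsl6*, a long-chain synthetase, *Acat1*, a thiolase of ketone use, *Hsd17b10*, a hydroxyacyl-CoA dehydrogenase, and *Vldlr*, a lipoprotein receptor, had log2 differences of -0.75, -0.72, -0.60 and -0.56. Downstream of the spiral, 8 of 17 citric acid cycle genes and 29 of 71 respiratory chain genes fell in the severe line at 24 weeks and 0 rose, with medians of -0.49 and -0.38. Whether the 35 fatty acid genes moved more than these was not tested.

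**Figure D5:**
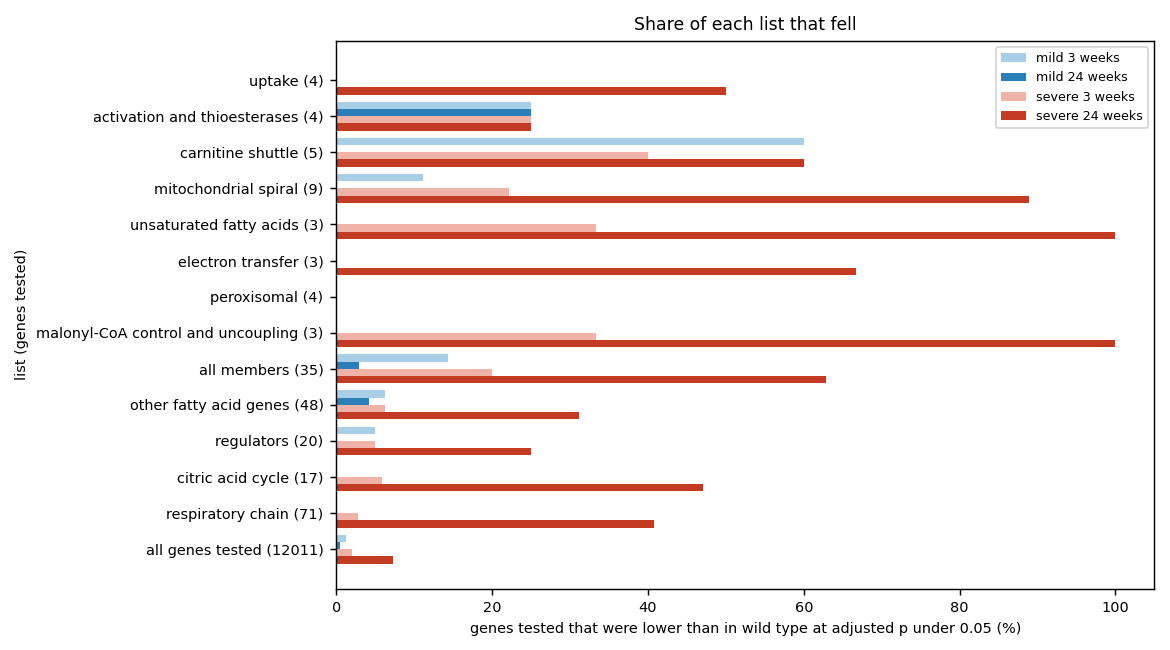
Share (%) of the tested genes of each list that were lower than in wild type at an adjusted p under 0.05, for both lines at both ages, with the number of genes tested in brackets. In the severe line at 24 weeks 62.9% of the 35 fatty acid genes fell, against 31.2% of the further fatty acid genes, 47.1% of the citric acid cycle, 40.8% of the respiratory chain and 7.32% of all genes.

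Of 20 transcriptional regulators of the pathway, 5 fell and 0 rose in the severe line at 24 weeks. *Ppargc1a*, the coactivator of mitochondrial genes, fell (-1.20 ± 0.22, adjusted p = 0.000463) and was lower in the severe than in the mild line (-0.87 ± 0.21, adjusted p = 0.00773). *Rxrg*, a retinoid X receptor and partner of the PPARs, fell in mild line hearts of 3 weeks (-0.62 ± 0.14, adjusted p = 0.012) and in the severe line at 3 weeks (-0.82 ± 0.14, adjusted p = 0.000864) and 24 weeks (-1.08 ± 0.12, adjusted p = 1.22e-06). *Lpin1*, a coactivator of PPARα in liver, *Esrra*, which encodes ERRα, and *Ppara*, which encodes PPARα, fell too, with log2 differences of -0.61 ± 0.13, -0.50 ± 0.10 and -0.28 ± 0.09 in the severe line at 24 weeks.

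Letters of the nuclear receptor site were looked up in the start regions of the 35 genes, because members that fell together are known targets of these receptors. A RefSeq window (GRCm38.p6, 250 bases before to 50 bases after the start) was matched for 29 of the 35. The core site AGGTCA, on either strand, was in the windows of 7 of the 29 genes and in 16.3% of all 32851 windows. The longer form AAGGTCA, which contains the core site, was in those of *Acacb* and *Acadm* (2 of 29) and in 4.72% of all windows. A direct repeat of the core site with 1 base between was in 0 of the 29 and in 0.0396% of all windows. Both windows with the longer form are shown, with its letters in capitals, for *Acacb* at chr5:114165268-114165567 on the plus strand and *Acadm* at chr3:153944594-153944893 on the minus strand. In both the match reads on the opposite strand, at bases 44 to 50 after the start in *Acacb* and at -249 to -243 in *Acadm*. A match is a description of letters and not a site of binding.
Acacb: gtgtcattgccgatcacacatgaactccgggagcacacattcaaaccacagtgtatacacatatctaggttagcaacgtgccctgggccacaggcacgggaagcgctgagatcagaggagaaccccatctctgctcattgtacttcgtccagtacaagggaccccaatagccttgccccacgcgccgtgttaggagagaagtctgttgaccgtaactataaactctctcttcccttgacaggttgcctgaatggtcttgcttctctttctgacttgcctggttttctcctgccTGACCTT
Acadm: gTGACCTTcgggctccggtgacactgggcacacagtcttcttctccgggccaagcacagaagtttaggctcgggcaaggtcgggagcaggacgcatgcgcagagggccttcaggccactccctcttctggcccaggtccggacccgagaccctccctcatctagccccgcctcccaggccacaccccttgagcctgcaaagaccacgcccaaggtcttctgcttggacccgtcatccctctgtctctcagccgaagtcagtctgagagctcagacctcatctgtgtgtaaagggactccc

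Markers of heart muscle and other cells were set beside these results, since in whole hearts fewer cells of a type and less RNA per cell cannot be told apart. All 7 tested heart muscle markers were above background on every array, and their summed log2 level at 24 weeks was 16.6 to 16.8 in wild type hearts, against 16.5 to 16.8 for the mild and 16.7 to 16.8 for the severe line. None of the 7 passed in the severe line at 24 weeks. At 3 weeks *Tagln* of smooth muscle (1.05, adjusted p = 0.00148), *Col1a2* of fibroblasts (0.39, adjusted p = 0.0263) and *Acta1* of skeletal muscle (1.04, adjusted p = 0.00137) rose in the severe line and *Adgre1* of macrophages fell (-0.38, adjusted p = 0.0474), while *Acta1* also rose in the mild line (1.12, adjusted p = 0.000671), and no other marker passed at that age. Summed fibroblast levels were 13.6 to 14.0 in wild type and 14.0 to 14.2 in severe line hearts of 3 weeks, and summed smooth muscle levels 13.3 to 14.1 and 13.9 to 14.8. Of 7 fibroblast markers 4 rose in the severe line at 24 weeks, with *Col1a1*, the α1 chain of type I collagen, at 1.66, and the summed level was 13.4 to 13.7 in wild type hearts, 13.7 to 13.8 for the mild and 13.8 to 14.3 for the severe line. Of 5 macrophage markers 1 rose, with summed levels of 10.9 to 11.2 in wild type and 11.2 to 11.5 in severe line hearts, and of 3 smooth muscle markers 2 rose, with 12.5 to 13.1 and 13.5 to 14.8. Of 6 endothelial markers 0 passed, with 11.9 to 12.5 and 12.2 to 12.7. Of 3 skeletal muscle markers, *Acta1* rose (1.70) and *Ckm* fell (-0.82), with summed levels of 13.8 to 14.0 and 14.2 to 14.8. Both were bright in wild type hearts (means 12.5 and 13.1) and above background on all 24 arrays, so their changes cannot be assigned to skeletal muscle. In the mild line at 24 weeks *Acta1* rose as well (1.66, adjusted p = 6.52e-07), and the summed level was 14.6 to 15.0. The paper names ACTA1 as an SRF target, raised in RNA and protein at 3 weeks in earlier work on MHC-CELFΔ mice. In its own blots ACTA1 protein tended to be higher at 3 weeks and was comparable to wild type at 24 weeks. Those protein differences were not significant at either age, and the values given here are of RNA. White fat markers, 3 of 6 tested, summed to 8.81 to 10.6 in wild type hearts, 8.65 to 9.89 for the mild and 8.52 to 9.98 for the severe line at 24 weeks, and none passed. Of 4 brown fat markers *Ppargc1a*, named above as a regulator, fell (-1.20) and *Dio2* rose (0.34), while *Cidea* (0.24) and *Ucp1* (0.22) did not pass. Their summed level was 10.7 to 11.8 in wild type and 10.2 to 10.8 in severe line hearts. *Ppargc1a* was the brightest of the 4 in wild type hearts (mean 10.7), so this sum mainly repeats its fall. Of 2 liver markers *Ttr* rose, with 7.65 to 7.93 and 7.80 to 8.36. The part of these cells in the fall of the fatty acid genes was not tested.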

How the data were processed

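Total RNA of each of 24 hearts was run on its own Illumina MouseWG-6 v2 array. The authors deposited a table of raw bead intensity, quantile-normalized log2 values and a detection p-value for each probe and array. Scanner software and normalization tool are not given in the sources used here. A further 48 columns were not assigned to these samples and not used. The deposited log2 values were the main input.

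Probes with a detection p under 0.05 on at least 3 of 24 arrays were kept (22663 of 45281), symbols came from the platform annotation, and the brightest probe stood for each of 12011 genes. All 6 groups entered a limma 3.58.1 model (lmFit, eBayes) in R 4.3.3, with Benjamini-Hochberg adjustment over all genes. The script was checked on simulated data. The members of the pathway, the other lists and the tests were chosen with earlier results of these data known. Values on every array are given for genes affected in any comparison with wild type and up to 10 more with the smallest adjusted p in severe line hearts of 24 weeks, at least 1 per step. From the further fatty acid genes up to 8 with the largest change among those past the test are named, and all regulators past the test. *Acsl1* was not analysed here. Alternatives were raw intensities centred on the median, neqc, other detection filters, the mean of probes, fits of the compared groups only, array weights, own-line wild type mice, blocks, the background sets and leaving out each array. The number of arrays limits the precision.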

Additional observations from a re-analysis of the deposited data

Results flagged for a closer look

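A value stood far from the rest of its group, by the gap to its nearest neighbour over the range of the group, in 12 of 140 groups of 4 or 5 hearts, where chance flags about 5%. In the severe line at 24 weeks replicate 5 was high for *Slc25a20* (10.85), *Acadl* (9.64) and *Etfdh* (10.80) and low for *Etfb* (12.59), and replicate 3 was low for *Acot13* (11.95), *Hadhb* (12.26) and *Eci2* (9.04). In the mild line at 24 weeks replicate 1 was low for *Slc27a1* (7.68), *Acot1* (7.88) and *Mlycd* (10.32), and replicate 3 was low for *Eci2* (9.25). In the wild type hearts at 3 weeks replicate 3 was low for *Acacb* (10.26).

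The difference from wild type at 24 weeks was itself unequal in both lines for 11 genes, tested as severe against mild line in the same model, with adjusted p under 0.05. The log2 differences were -0.88 for *Acot1*, -0.71 for *Crat*, -0.57 for *Acadvl*, -0.52 for *Acads*, -0.42 for *Echs1* and -0.40 for *Hadha*. They were -0.95 for *Eci1*, -0.72 for *Decr1*, -0.73 for *Etfb*, -0.72 for *Mlycd* and -0.46 for *Acacb*. Each was lower in the severe line, and for all but *Acot1* and *Mlycd* the 5 severe line hearts lay below the 5 mild line hearts.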

How the results depend on the processing

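None of the calls of the 35 fatty acid genes reversed its direction under an alternative (other genes named in the text were not refitted), and 749 of 1007 values of single genes stayed past the test. Of the 22 genes that fell in the severe line at 24 weeks, *Acot1*, *Eci1*, *Decr1* and *Etfb* passed under all alternatives. In raw intensities centred on the median of each array the counts of genes past the test were 0 (3 weeks) and 0 (24 weeks) for the mild line, 0 and 7 for the severe line, 1 between the lines at 24 weeks and 0 for age in wild type hearts. This scaling moved the median of all genes by 0.08 on the log2 scale for the severe line against wild type at 24 weeks, 0.11 at 3 weeks, and 0.11 and 0.12 between the lines at 24 and 3 weeks, and its calls over all genes were 37 higher and 28 lower for the mild line at 3 weeks (129 and 151 in the normalized values), 16 and 33 at 24 weeks (51 and 65), 241 and 11 in the severe line at 3 weeks (320 and 235), 803 and 49 between the lines at 24 weeks (714 and 640) and 37 and 1 at 3 weeks (54 and 15), 44 and 21 for age (193 of 309 lower), and 14 and 10 for the change with age in the severe line (54 and 28) and 0 and 3 in the mild line (2 and 6). With wild type mice of the own line only, the counts were 0 (3 weeks) and 0 (24 weeks) for the mild and 1 and 14 for the severe line, with fewer samples. Among wild type arrays of the same age, line and background set coincide. Within the arrays of higher background they were 0, 0, 1 and 9, and 1 between the lines and 0 for age; within those of lower background 2, 0, 0 and 9, and 5 and 0. Array weights gave 10 for the mild and 14 for the severe line at 3 weeks, 19 between the lines at 24 weeks and 1 for the change with age in the severe line. Over all genes array weights gave 777 and 1292 past the test at 3 weeks, against 280 and 555 in the main fit. Between the lines at 24 weeks they gave 2159 against 1354. The mean of all probes gave 3 and a fit of the compared groups only gave 9 for the mild line at 3 weeks, and the latter 0 for this line at 24 weeks. Over all genes these gave 293 and 517 for the mild line at 3 weeks, against 280. The higher counts of the 35 genes with array weights or the compared groups only thus came with more calls over all genes. The neqc correction gave 2 for the mild line at 24 weeks and 4 for the severe line at 3 weeks. Leaving out 1 array gave 1 to 6 and 0 to 2 in the mild line, 0 to 8 and 17 to 24 in the severe line, 9 to 14 between the lines at 24 weeks and 0 to 0 at 3 weeks, 0 to 1 for age, and 0 to 0 and 0 to 1 for its change in the mild and severe lines. Samples of different groups share only a replicate number (mean correlation of deviations 0.0848 over 60 pairs of the same number, -0.318 to 0.571, against -0.0284 for others). With the replicate number as a block 21 genes fell in the severe line at 24 weeks, and 1 passed for the change with age in the severe line. The cause of these shifts was not tested.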
